A study of Homo sapiens with 8 samples.

Results

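Chromosome 22 carried 5020 of the 98024 peaks deposited for ORCA and methylated DNA in U2OS cells, a human osteosarcoma cell line. These were 813 of 10740 early G1, 797 of 10382 mid G1 and 80 of 1347 late G1 ORCA peaks, and 3330 of 75555 peaks of methylated DNA. Peaks were chosen by position alone: every peak of the 4 lists on chromosome 22, in hg19 coordinates. The chromosome itself was picked from earlier results on these lists, so its high peak number is a description and carries no test.

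ORCA, also called LRWD1, was mapped by chromatin immunoprecipitation and sequencing in formaldehyde-fixed cells synchronized to early, mid or late G1. Methylated DNA was mapped by MeDIP-seq, in which fragments with methylated cytosine are pulled down and sequenced, in cells whose labels name no cell cycle stage. The series had 8 samples, 1 per group: these 4 and an input for each, and the inputs were not analysed here. How the cells were synchronized, the antibody and the read depth were not stated. The late list was deposited under another peak caller number than the early and mid lists, and it is much shorter, so whether it was called in the same way is not known.

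ORCA is a WD-repeat protein that binds the origin recognition complex, the protein complex that marks where DNA replication can start. It helps to hold that complex on chromatin and is known for its association with heterochromatin, including sites with repressive histone methylation and methylated DNA. G1 is the phase in which origins are loaded with the replicative helicase before DNA synthesis. Chromosome 22 is a small chromosome with its centromere close to one end. Its short arm holds ribosomal RNA gene arrays, and its long arm is rich in genes and CpG dinucleotides. In the 4 lists the first peak began at 16055269 and the last ended at 51227285, so that the peaks described lie on the long arm and beside the centromere. Genes and sequences under the peaks are not given, because an hg19 genome and annotation were not used here.

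ORCA peaks were denser on chromosome 22 than on each other chromosome from 1 to 21 and X, at all 3 stages. Over the 36 bins of 1 Mb that held a peak of any list, chromosome 22 had 22.6 early peaks per Mb (95% Poisson interval 21.1 to 24.2), 22.1 mid peaks (20.6 to 23.7) and 2.22 late peaks (1.76 to 2.77). The other chromosomes had 3.60 early, 3.49 mid and 0.456 late peaks per Mb over 2735 such bins. The density was thus higher by a factor of 6.27 in the early, 6.34 in the mid and 4.87 in the late list. Next in order for early G1 were chromosome 17 with 12.0 and chromosome 7 with 10.4 peaks per Mb. In late G1 the next was chromosome 7 with 1.56 peaks per Mb (interval 1.37 to 1.78), whose interval just meets that of chromosome 22. These intervals allow for the error of counting alone, and peaks beside each other may share a source.

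**Figure D1:**
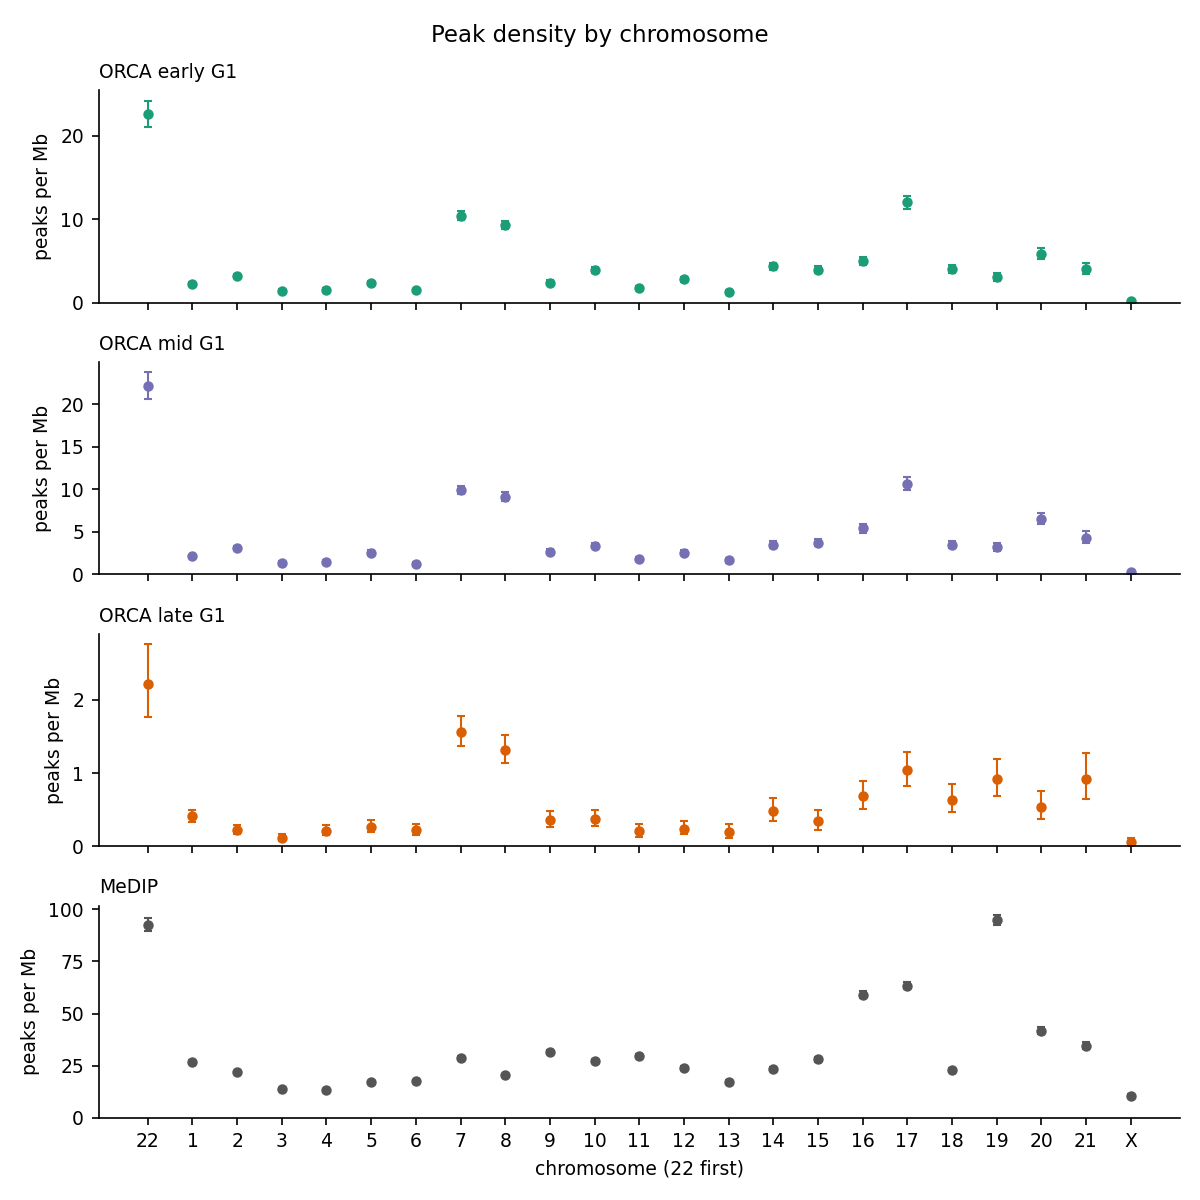
Peaks per Mb on each chromosome for the 3 ORCA lists and MeDIP, over 1 Mb bins that hold a peak of any list; points are densities and bars are exact 95% Poisson intervals. Chromosome 22, at the left, is the highest in the 3 ORCA panels, with 22.6, 22.1 and 2.22 peaks per Mb, and second to chromosome 19 in MeDIP.

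The chromosome was less prominent among peaks of methylated DNA. MeDIP peaks reached 92.5 per Mb on chromosome 22 (interval 89.4 to 95.7) and 26.0 on the other chromosomes, 3.55 times higher. Chromosome 19 had 94.7 MeDIP peaks per Mb (interval 92.2 to 97.3), which overlaps that of chromosome 22. In ORCA these chromosomes were far apart: chromosome 19 had 3.07 early, 3.21 mid and 0.912 late ORCA peaks per Mb. Chromosome 22 therefore held 7.62% of the early, 7.71% of the mid and 6.02% of the late ORCA list, but 4.47% of the MeDIP list. The median score, the authors' own value for each peak, was 63.79 on chromosome 22 and 64.01 elsewhere in early G1, and 68.4 and 70.06 in mid G1. In late G1 it was lower on chromosome 22, 60.5 against 70.5 elsewhere, and 36.2% of the late peaks of chromosome 22 reached the median of their list.

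Most ORCA peaks lay in a stretch of 10 Mb on the centromere side of the long arm. From 19 to 29 Mb there were 551 early, 499 mid and 50 late peaks, which is 67.8%, 62.6% and 62.5% of the chromosome's peaks at those stages. The limits of this stretch, and of the other parts below, were set after the density was seen. Inside it the density was 55.1 early, 49.9 mid and 5 late peaks per Mb, against 10.1, 11.5 and 1.15 on the other 26 Mb. MeDIP peaks did not follow: there were 861 in the stretch, or 86.1 per Mb, against 94.96 per Mb on the other 26 Mb. Outside the stretch, ORCA peaks were still 2.80 times denser than on the other chromosomes in the early, 3.28 times in the mid and 2.53 times in the late list. Read depth and DNA copy number along the chromosome were not analysed here.

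The stretch began within the bin from 19 to 20 Mb, with 65 early, 60 mid and 5 late peaks. The bin before it, from 18 to 19 Mb, held 14, 8 and 1, although its 121 MeDIP peaks exceeded the 111 of the first dense bin. At the far side, 60 early, 31 mid and 6 late peaks lay from 28 to 29 Mb, and 16, 12 and 0 in the next bin. Within the stretch the fewest early peaks, 27, lay from 23 to 24 Mb and the fewest mid peaks, 29, from 27 to 28 Mb. The densest bin of the chromosome at each stage was that from 25 to 26 Mb, with 114 early, 103 mid and 21 late peaks. Among all bins of the genome it was number 10 in the early, 11 in the mid and 6 in the late list, and number 1 at each stage when chromosomes 7 and 8 were set aside. With bins shifted by 500 kb, the densest bin ran instead from 19.5 to 20.5 Mb in early G1, with 99 peaks, and in mid G1, with 107. The bin from 25 to 26 Mb held 75 MeDIP peaks, just under the median of 76.5 MeDIP peaks per bin of chromosome 22.

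**Figure D2:**
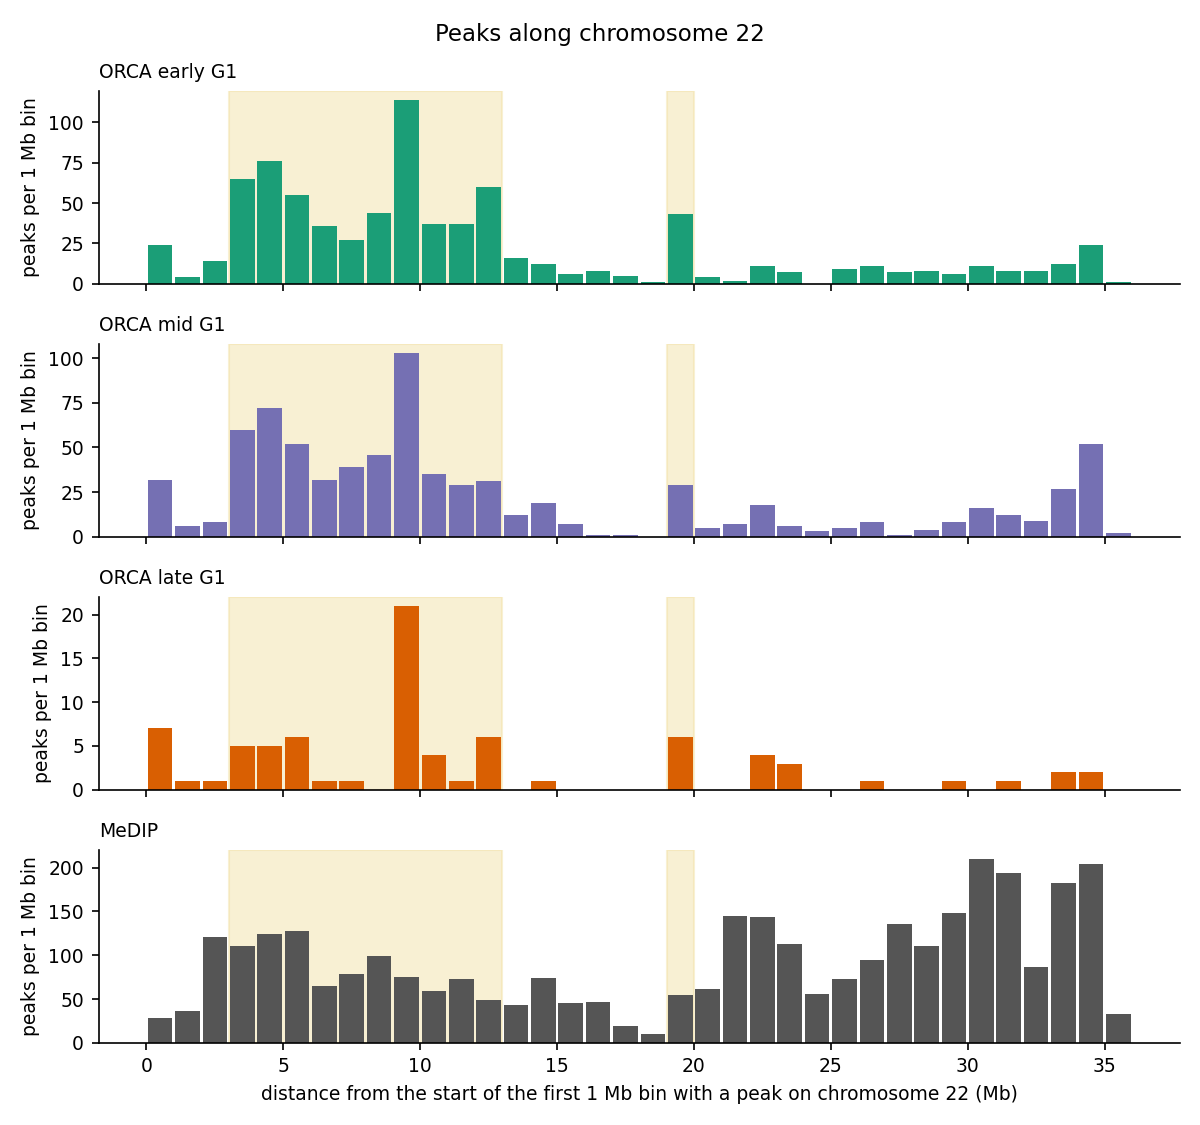
Peak midpoints per 1 Mb bin along chromosome 22 for the 3 ORCA lists and MeDIP, by distance from the start of the first bin with a peak. Shading marks the dense stretch (3 to 13 Mb on this axis) and the single dense bin beyond it (19 to 20 Mb on this axis), where the ORCA panels are high; the MeDIP panel is highest towards the right, with up to 210 peaks per bin.

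After the densest bin, 3 bins ranked high in both early and mid G1. There were 76 early and 72 mid peaks from 20 to 21 Mb. The megabase before had 65 and 60, and the megabase after had 55 and 52. The other bin among the 5 densest was that from 28 to 29 Mb in early G1, with 60 peaks, and that from 50 to 51 Mb in mid G1, with 52. In late G1 the bin from 16 to 17 Mb came second with 7 peaks, followed by those from 21 to 22, 28 to 29 and 35 to 36 Mb with 6 each. The 5 densest of 36 bins held 45.5% of the early, 42.5% of the mid and 57.5% of the late list, but 28.2% of MeDIP peaks.

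Beyond the stretch, ORCA peaks thinned out and then returned in 1 isolated bin. Between 29 and 35 Mb there were 48 early, 40 mid and 1 late peaks, and the bin from 34 to 35 Mb held 1 early peak and no other ORCA peak. The longest interval without an ORCA peak of any stage ran from 34251383 to 35078473, 827 kb, and contained 3 MeDIP peaks. The next longest ran from 32355166 to 32997244, 642 kb, with 23 MeDIP peaks, and from 17518378 to 18047400, 529 kb, with 31. The longest interval empty in all 4 lists lay inside the first of these, from 34312927 to 35078473, 766 kb. Directly after it, 43 early, 29 mid and 6 late peaks filled the bin from 35 to 36 Mb beside 55 MeDIP peaks, and the bin after that 4, 5 and 0 ORCA peaks beside 61 MeDIP peaks.

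The distal long arm was the reverse, with many MeDIP peaks and fewer ORCA peaks per Mb than the dense stretch. From 36 to 49 Mb there were 1571 MeDIP peaks, 121 per Mb, with 92 early, 102 mid and 10 late ORCA peaks. These ORCA densities, 7.08, 7.85 and 0.769 per Mb, were still above the 3.60, 3.49 and 0.456 of the other chromosomes. The 5 densest MeDIP bins were those from 46 to 47 Mb with 210 peaks, 50 to 51 Mb with 204, 47 to 48 Mb with 194, 49 to 50 Mb with 182 and 45 to 46 Mb with 148. None of these was among the 5 densest bins of early or late G1, and 1 of them, from 50 to 51 Mb, was among those of mid G1. That bin held 52 mid peaks and 24 early peaks, and the bin before it 27 and 12. Over the last part, from 49 Mb on, the mid list had 81 peaks and the early list 37, 2.19 times as many, whereas over the stretch from 19 to 29 Mb it had 0.906 times as many. Each stage is 1 sample, so these differences could not be set against replicate spread.

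Across the 36 bins, the numbers of early and mid peaks had a Pearson correlation of 0.93 and a Spearman correlation of 0.90. For early and late peaks these were 0.82 and 0.70, and for mid and late peaks 0.78 and 0.73. With MeDIP peaks the Pearson values were near 0, -0.0031 in the early, 0.17 in the mid and -0.035 in the late list, with Spearman values of 0.18, 0.31 and 0.17. Neighbouring bins are not independent, and all bins share the cell line and the sequence that can be mapped, so these values are descriptions.

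ORCA peaks occurred in runs. A run here is a series of peaks of 1 list with neighbours at most 20 kb apart, and runs were ordered by their number of peaks. Runs of 4 or more held 463 early peaks (56.9% of the list on chromosome 22, 38.0% elsewhere) and 469 mid peaks (58.8%, 38.9% elsewhere). In late G1 they held 17 peaks (21.2%, 22.8% elsewhere). The 3 lists were also denser on chromosome 22, and the part of density in these shares was not tested. The early run with the most peaks went from 20095320 to 20289577, 194 kb, with 35 peaks, and 40 mid, 3 late and 38 MeDIP peaks lay in the same interval. The first mid run by peak number, from 25673312 to 25883959, 211 kb, had 38 peaks, along with 30 early, 8 late and 24 MeDIP peaks. The first late run, from 25723885 to 25802055, 78.2 kb, had 8 peaks and fell inside it. The second early run, from 25709838 to 25853497 with 28 peaks, also fell inside this mid run, and the third, from 35700321 to 35805612 with 25 peaks, made up most of the isolated dense bin. Peaks covered 12.1% of the first early run, but 41.2% of the second and 45.0% of the third.

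MeDIP runs held more peaks and sat elsewhere. The first by peak number went from 46255099 to 47618181, 1363 kb, with 377 peaks, and contained 16 early, 25 mid and 0 late ORCA peaks. With neighbours at most 10 kb apart, no MeDIP run held more than 77 peaks, and no early run more than 19. The next at 20 kb, from 37397784 to 37853031, had 98 MeDIP peaks with 1 early, 5 mid and 0 late ORCA peaks. The third, from 48884158 to 49152224, also had 98, with 8 early, 14 mid and 0 late ORCA peaks. Runs of 4 or more held 90.2% of the MeDIP peaks of chromosome 22 and 72.8% of those elsewhere. MeDIP peaks were also denser on chromosome 22, and the part of density in this difference was not tested.

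Taken over the whole chromosome, peaks on chromosome 22 were wider than elsewhere in the 3 ORCA lists. The median width was 706 bp in early (95% interval 684 to 737), 728 bp in mid (692 to 761) and 1481.5 bp in late G1 (1037 to 1624). On the other chromosomes it was 583 bp (577 to 591), 617 bp (609 to 624) and 938.5 bp (892 to 977). MeDIP peaks differed less, with a median of 879 bp (861 to 897) on chromosome 22 and 830 bp (827 to 834) elsewhere. The very widest peaks were not more frequent: 11 early, 9 mid and 4 late peaks reached 3000 bp, which is 1.35%, 1.13% and 5%, against 1.42%, 1.83% and 4.97% elsewhere. Late peaks ranged from 389 to 3488 bp, early peaks from 262 to 5078 bp and mid peaks from 265 to 3833 bp.

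**Figure D3:**
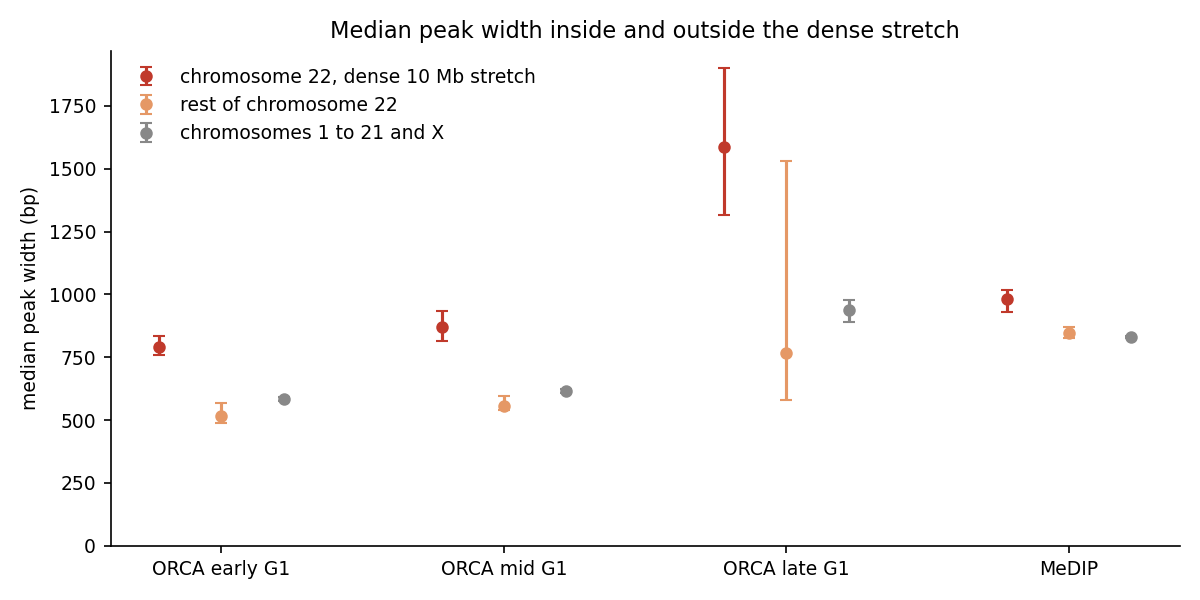
Median peak width in bp for each list inside the dense 10 Mb stretch of chromosome 22, on the rest of chromosome 22 and on chromosomes 1 to 21 and X; bars are 95% order-statistic intervals of the median. Early and mid peaks inside the stretch, with medians of 791 and 871 bp, are wider than those in both other groups, and the late interval outside the stretch is broad and rests on 30 peaks.

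Width differed between the dense stretch and the rest of the chromosome. In the stretch, early peaks had a median of 791 bp (interval 760 to 835), against 516.5 bp (488 to 568) on the rest of the chromosome, which is below the 583 bp of the other chromosomes. Mid peaks had 871 bp (814 to 932) inside and 557 bp (539 to 596) outside, and late peaks 1585 bp (1315 to 1899) and 768 bp (580 to 1529). The mid and late medians outside were also below those of the other chromosomes, 617 and 938.5 bp. The late interval outside includes the latter value. Widths were also large in the isolated bin from 35 to 36 Mb, with medians of 1053 bp in the early, 1076 bp in the mid and 1796 bp in the late list, and in the 3 Mb next to the centromere, with 978, 979.5 and 1529 bp. They were smallest from 36 to 49 Mb, with 455.5, 495 and 503 bp. Score did not separate these places to the same degree: in early G1 the median score was 63.87 inside the stretch and 63.49 outside it.

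Sharing between stages was close to that of the other chromosomes. On chromosome 22, 276 of 813 early peaks overlapped a mid peak by at least 1 bp (33.9%, Wilson interval 30.8 to 37.3, against 32.6% over chromosomes 1 to 22 and X). A late peak was overlapped by 63 early peaks (7.75%, against 8.91%). Among 797 mid peaks, 274 shared bases with an early peak (34.4%, interval 31.2 to 37.7, against 32.6%) and 60 a late peak (7.53%, against 9.53%). Of the 80 late peaks, 55 overlapped an early peak (68.8%, interval 57.9 to 77.8, against 65.4%) and 55 a mid peak (68.8%, against 70.3%). These values depended on list length: with the early and mid lists cut by score to the length of the late list, 26.2% of late peaks met an early and 31.2% a mid peak, and 28% of early and 28.2% of mid peaks met a late peak. The difference from the other chromosomes was 1.49 percentage points for early with mid peaks (Newcombe interval -1.82 to 4.94) and 1.98 for mid with early peaks (-1.37 to 5.47). The interval lay below 0 for mid with late peaks, at -2.16 points (-3.91 to -0.0413), and included 0 for the other comparisons between stages.

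**Figure D4:**
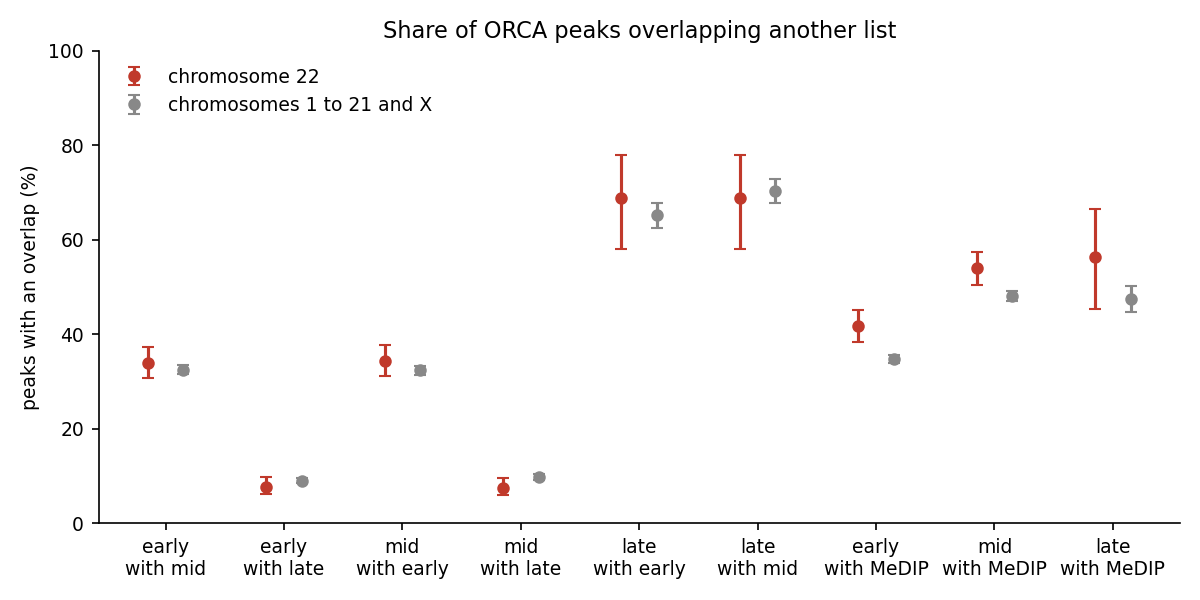
Share of ORCA peaks that overlap a peak of another list by at least 1 bp, on chromosome 22 and on chromosomes 1 to 21 and X; bars are 95% Wilson intervals. Points for sharing between stages lie close together, while the 3 MeDIP shares are higher on chromosome 22, at 41.7%, 54.0% and 56.2%, with overlapping bars in late G1.

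With any other stage, 289 early peaks (35.5%, against 33.8% over all chromosomes), 286 mid peaks (35.9%, against 34.6%) and 68 late peaks (85.0%, interval 75.6 to 91.2, against 79.4%) overlapped. The late peaks of chromosome 22 thus left 12 with no early or mid counterpart, and 91.7% of these had one within 10 kb. The early and mid peaks without a counterpart were also close to one: the median distance was 6570 bp for early and 6487 bp for mid peaks, against 30556 and 24420 bp elsewhere. The density of the lists was also higher on this chromosome, and its part in the distances was not tested.

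In the early and mid lists, sharing was higher where peaks were wide. Of the early peaks, 78.0% of the 50 that reached 2000 bp overlapped another stage (interval 64.8 to 87.2), against 18.5% of the 178 under 500 bp (13.5 to 24.9). The same shares were 86.2% of 58 and 14.1% of 163 in the mid list. Late peaks showed no such order: all 21 of at least 2000 bp and all 7 under 500 bp overlapped another stage, and in the classes between the share ran from 62.5% to 90%. Inside the dense stretch 39.7% of early and 41.9% of mid peaks overlapped another stage, against 26.7% and 25.8% on the rest of the chromosome, differences of 13.03 (interval 6.09 to 19.5) and 16.04 points (9.29 to 22.4). For late peaks the order was the other way, 82% inside and 90% outside, a difference of -8 points (-22.4 to 9.66). Outside the stretch the parts were unlike each other: 54.8% of early and 54.3% of mid peaks were shared from 16 to 19 Mb, and 39.5% and 72.4% from 35 to 36 Mb, but 4 of 48 and 5 of 40 peaks from 29 to 35 Mb. The stretch was drawn where ORCA peaks were dense, so a higher share of early and mid peaks there can follow from that choice. Its differences from the rest are given as descriptions. Peak width also moved with these differences, and its part in them was not tested.

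Merging the 3 lists gave 1312 ORCA regions on chromosome 22. Of these, 44 were found at all 3 stages (3.35%, interval 2.51 to 4.47, against 3.94% over all chromosomes), 200 in early and mid G1, 11 in early and late G1 and 10 in mid and late G1. A single stage accounted for 524 early, 511 mid and 12 late regions. The all-stage regions had a median width of 2617 bp, against 634.5 bp for the early-only and 626 bp for the mid-only regions. All-stage regions join overlapping peaks of the 3 lists, which by itself adds width, so these medians do not compare peak widths. On the other chromosomes these medians were 1755.5, 509 and 542 bp.

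The all-stage regions were laid out like the peaks as a whole. There were 27 from 19 to 29 Mb, 6 before it, none from 29 to 35 Mb, 4 in the bin from 35 to 36 Mb, 4 from 36 to 49 Mb and 3 beyond. Of the 27 in the stretch, 11 fell in the bin from 25 to 26 Mb. A MeDIP peak overlapped 22 of the 27, 4 of the first 6 and 3 of the 4 from 35 to 36 Mb. From 36 Mb on it overlapped 1 of 7.

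The region with the highest ORCA score of the chromosome lay near the end of the long arm. The region from 49779136 to 49782623, 3488 bp wide, came first at each stage, with a score of 1035.8 in early and 3100 in mid and late G1, and it had no MeDIP peak. The next by mean rank, from 49583420 to 49584678, scored 211.5, 903.7 and 527.4, also without a MeDIP peak. The fourth, from 50714413 to 50715569, scored 227.3, 523.5 and 148.0 and overlapped a MeDIP peak of score 2650. A narrow region from 47774694 to 47775665 scored 157.8, 753.4 and 65.2 and had no MeDIP peak. The 4 late peaks from 49 Mb on had a median score of 337.7, and the 50 of the dense stretch one of 59.98. Scores rank peaks only within 1 list.

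Of the 15 all-stage regions of best mean rank, those with several MeDIP peaks were also the widest. The region from 35737947 to 35750328 was the widest of the chromosome at 12382 bp. It joined 3 early, 4 mid and 1 late peaks, with top scores of 447.7, 313.6 and 160.2, and overlapped 5 MeDIP peaks. Regions from 20708576 to 20712055 and from 20713860 to 20716327 lay under the same MeDIP peak, which was 8368 bp wide and had a score of 3100. Their ORCA scores were 224.0, 393.9 and 146.3 in the first, and 385.2, 420.7 and 111.4 in the second. The region from 28191493 to 28198668 was 7176 bp wide and scored 329.8, 453.0 and 106.5, with 3 MeDIP peaks. That from 25752805 to 25760039, 7235 bp wide, scored 252.7, 132.0 and 124.8, with 4.

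Next to the centromere, 3 of these regions lay close together. They ran from 16096164 to 16099673, from 16122192 to 16124432 and from 16155671 to 16159150. Their early scores were 400.7, 335.6 and 465.6, their mid scores 396.5, 347.9 and 750.1, and their late scores 123.5, 82.9 and 68.7. The first had no MeDIP peak, and the other two had MeDIP scores of 2326 and 3100. Their bin, from 16 to 17 Mb, had 28 MeDIP peaks next to 24 early, 32 mid and 7 late peaks. Mid peaks outnumbered MeDIP peaks in this bin and in that from 25 to 26 Mb, and early peaks did so from 25 to 26 Mb and from 28 to 29 Mb.

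The other all-stage regions among the 15 of best mean rank lay from 19418435 to 19420417, from 21803979 to 21805743, from 38202682 to 38204501 and from 19859924 to 19862308. Their early scores lay between 80.3 and 169.1, their mid scores between 132.7 and 227.8 and their late scores between 91.7 and 132.7. The lowest late score among the 44 was 50.4, close to the smallest score in the lists, 50.

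Regions of 2 stages that ranked first were also large. From 21023774 to 21026040 an early peak of score 345.5 and a mid peak of score 659.0 shared a region with a MeDIP peak of score 3100 and no late peak. From 25760337 to 25764382 scores were 300.6 in early and 304.8 in mid G1, with a MeDIP score of 3153. From 48977809 to 48981569 they were 175.7 and 402.0, with a MeDIP score of 3100. The best early and late region, from 25565592 to 25568798, scored 182.6 and 91.8. The best mid and late region, from 25799925 to 25802055, scored 211.0 and 100.7.

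Some early-only and mid-only regions ranked high as well, whereas the first late-only regions lay near the middle of their list. The first early-only regions were those from 20037358 to 20039125, from 28395982 to 28398625 and from 35804171 to 35805612, with scores of 201.5, 200.5 and 197.2. The first mid-only regions, from 29875715 to 29877408, from 22994466 to 22995739 and from 24564687 to 24566110, had scores of 298.5, 256.6 and 250.7, and all 3 met MeDIP peaks. Among late-only regions, those from 42909929 to 42910683, from 39918910 to 39919519 and from 21069215 to 21069946 led with scores of 73.5, 69.3 and 63.8. Over all early peaks of chromosome 22, the median score was 73.7 for those shared with another stage, against 60.8 for those of early G1 alone. In mid G1 these medians on chromosome 22 were 84.9 and 64.6.

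Methylated DNA coincided with ORCA peaks more often on chromosome 22 than elsewhere. MeDIP peaks overlapped 339 of 813 early peaks (41.7%, interval 38.4 to 45.1, against 35.3% over all chromosomes). They overlapped 430 of 797 mid peaks (54.0%, interval 50.5 to 57.4, against 48.6%) and 45 of 80 late peaks (56.2%, interval 45.3 to 66.6, against 47.9%). The difference from the other chromosomes was 6.95 percentage points for the early (3.47 to 10.5), 5.84 for the mid (2.23 to 9.41) and 8.89 for the late list (-2.36 to 19.6), the last with an interval that includes 0. Within chromosome 22 the mid share exceeded the early share by 12.3 points (7.38 to 17.05) and the late share exceeded the early share by 14.6 points (3.12 to 25.4). The early and mid lists were also cut by score to the length of the late list, which was kept whole. The early share was then 64.0% of 75 peaks (52.7 to 73.9) and the mid share 77.6% of 85 (67.7 to 85.2). The late share was 56.2% of 80 (45.3 to 66.6). As values, mid was still above early and late was below both. The early interval overlapped that of mid and that of late.

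MeDIP peaks also covered more of this chromosome, 10.5% of its 36 bins against 2.75% of the bins elsewhere. Counted in bases, 30.4% of the early, 41.4% of the mid and 39.5% of the late ORCA bases of chromosome 22 lay in MeDIP peaks, slightly below the 33.8%, 44.2% and 41.1% of the other chromosomes. The higher share of overlapping peaks thus did not extend to bases. ORCA peaks without a MeDIP peak were nonetheless near one: 71.7% of those of early and 77.7% of those of mid G1 had a MeDIP peak within 10 kb, against 46.2% and 48.6% elsewhere. The density of MeDIP peaks moved with these shares, and its part in them was not tested.

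The difference from other chromosomes changed with peak width. Of the 178 early peaks under 500 bp, 35.4% overlapped a MeDIP peak, against 20.6% elsewhere, a difference of 14.8 points (8.06 to 22.2). In the same width class 52.1% of 163 mid peaks did, against 38.2% elsewhere, a difference of 14.0 points (6.14 to 21.7). Between 750 and 1000 bp the shares were level, with differences of -0.67 points in early and -0.57 points in mid G1. Between 1500 and 2000 bp the share was lower on chromosome 22: 41.5% of 53 early peaks against 67.6% elsewhere, a difference of -26.1 points (-39.1 to -11.9), and 50% of 50 mid peaks against 69.2% elsewhere, a difference of -19.2 points (-33.2 to -5.08). In the widest class, from 2000 bp on, the interval of the difference included 0, at -12.6 points in early (-27.0 to 0.332) and -3.04 in mid G1 (-16.1 to 7.31). In mid G1 the share lay between 50% and 55.1% in each class under 2000 bp and was 74.1% of the 58 widest peaks. After the widest 5% of each list was removed, the shares on chromosome 22 were 28.4% in the early, 37.8% in the mid and 34.2% in the late list. This setting removed wide MeDIP peaks as well as wide ORCA peaks, and the part of each was not separated. The classes of late peaks held 7 to 21 peaks each, and 12 of the 15 between 500 and 750 bp had a MeDIP peak (80.0%, interval 54.8 to 93.0, against 33.3% elsewhere). That was the largest late difference. Under 500 bp and from 750 to 1000 bp the late differences were 4.70 and 7.42 points. In the classes from 1000 bp on they were -9.71, -13.1 and -9.99 points. In each of these other classes the interval included 0.

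The MeDIP share of ORCA peaks also varied along the chromosome. From 29 to 35 Mb, 3 of 48 early peaks had a MeDIP peak (6.25%, interval 2.15 to 16.8), whereas 18 of 40 mid peaks did (45.0%, interval 30.7 to 60.2). Mid minus early was 38.8 points there (20.96 to 54.5). From 36 to 49 Mb the mid share was 51.96% and the early share 28.3%, 23.7 points apart (9.90 to 36.2), and in the dense stretch 53.7% and 44.3%, 9.42 points apart (3.37 to 15.4). In the other three parts the interval of mid minus early included 0. The early share was highest at both ends, 61.9% of 42 peaks before 19 Mb and 67.6% of 37 from 49 Mb on, where the mid share was 72.8% of 81.

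**Figure D5:**
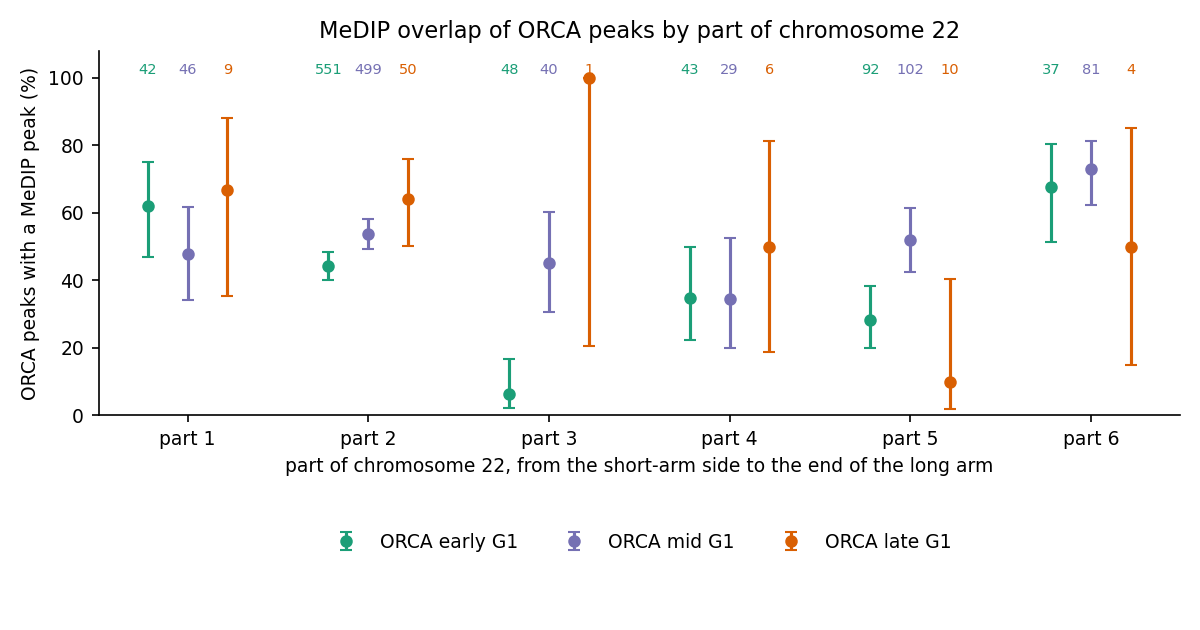
Share of ORCA peaks with a MeDIP peak in 6 parts of chromosome 22, ordered from the centromere to the end of the long arm, by stage; bars are 95% Wilson intervals and the small numerals give how many ORCA peaks each share rests on. Part 1 runs from 16 to 19 Mb, part 2 from 19 to 29, part 3 from 29 to 35, part 4 from 35 to 36, part 5 from 36 to 49 and part 6 from 49 to 52; the early and mid bars are separate in parts 2, 3 and 5, and late points rest on 1 to 50 peaks.

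From 29 to 35 Mb the median width was 514.5 bp for mid and 470.5 bp for early peaks, and the median score 61.5 for mid and 58.4 for early peaks. The part of width and score in the difference was not tested. The 10 late peaks from 36 to 49 Mb had a MeDIP peak in 1 case, against 32 of the 50 late peaks in the dense stretch (64.0%, interval 50.1 to 75.9).

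By stage class, a MeDIP peak was found at 586 of 1312 merged ORCA regions (44.7%, interval 42.0 to 47.4, against 37.2% over all chromosomes). The share was 68.2% of the 44 all-stage regions (interval 53.4 to 80.0) and 63.0% of the 200 regions of early and mid G1 (56.1 to 69.4). It was 49.3% of the 511 mid-only regions (45.0 to 53.6) and 30.9% of the 524 early-only regions (27.1 to 35). Compared with the other chromosomes, the early-only share was higher by 8.54 points (4.60 to 12.7) and the mid-only share by 6.57 points (2.09 to 11.1). For all-stage regions and those of early and mid G1 the interval of the difference included 0. Of the 12 late-only regions, 6 had a MeDIP peak (50%, interval 25.4 to 74.6, against 18.3% elsewhere). The classes also differed in width on chromosome 22. Medians were 2617 bp for all-stage regions and 1302 bp for those of early and mid G1. For mid-only and early-only regions they were 626 and 634.5 bp. The part of width in the MeDIP shares was not tested.

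Seen from the methylated sites, 538 of 3330 MeDIP peaks on chromosome 22 overlapped an ORCA peak of any stage (16.2%, interval 14.9 to 17.45, against 8.04% over all chromosomes). An early peak was found at 309 (9.28%, against 4.6%), a mid peak at 389 (11.7%, against 6.03%) and a late peak at 53 (1.59%, against 0.901%). Of the 538, 358 met ORCA at 1 stage, 147 at 2 and 33 at all 3. MeDIP peaks with ORCA had a median width of 1310 bp (interval 1237 to 1378), against 833 bp (815 to 855) for the 2792 without, and a median score of 396.7 against 168.0. Of the 666 MeDIP peaks with the highest scores 32.1% met an ORCA peak (28.7 to 35.8). Of the 666 with the lowest scores 9.31% did (7.33 to 11.8). Half-way widths of these groups were far apart: the median was 1568.5 bp for the highest scores and 650 bp for the lowest. By width, 7.73% of the 414 MeDIP peaks under 500 bp and 41.7% of the 355 from 2000 bp on met an ORCA peak. The part of width in the difference by score was not tested.

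The share also varied along the chromosome. In the dense stretch 327 of 861 MeDIP peaks met an ORCA peak (38.0%, interval 34.8 to 41.3), against 211 of 2469 on the rest of the chromosome (8.55%, interval 7.51 to 9.71). The stretch was drawn where ORCA peaks were dense, so a higher share there follows from that choice and is given as a description. Scores of MeDIP peaks inside and outside the stretch were alike, with medians of 191.4 and 190.3. Their widths differed, with medians of 982 bp (interval 931 to 1019) inside and 848 bp (826 to 871) outside. In the isolated bin from 35 to 36 Mb the share was 38.2% of 55, and from 36 to 49 Mb 4.58% of 1571.

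Of the 5 methylated sites with the highest scores, 2 met an ORCA peak. They lay from 50892321 to 50896503, from 31317753 to 31318794, from 50670983 to 50673770, from 25761360 to 25766123 and from 37602581 to 37604081, with scores between 3148 and 3225. Those from 50892321, 31317753 and 37602581 overlapped no ORCA peak. The one from 50670983, near the end of the long arm, overlapped an early peak of score 52.7 and a mid peak of score 88.9. The one from 25761360, in the densest ORCA bin, overlapped 2 early and 2 mid peaks with top scores of 300.6 and 304.8. MeDIP peaks with a score of 3100 were tied, at a rank of 0.0385 as a fraction of the list. The score therefore does not order them. Those at the ORCA regions from 20708576, 21023774 and 28191493 were among these ties.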

How the data were processed

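The members and comparisons were chosen with earlier results of these data known. For each immunoprecipitated sample the authors deposited 1 list of peaks with a score per peak, and starts and ends in hg19. Reads were handled with Trimmomatic and Bowtie 0.12.7, per the submitters' processing notes. Peaks were called with MACS, per the peak names in the files. The caller's settings, its handling of the inputs and the read depth are unstated, so the score was used as the authors' own value, to rank peaks within a list. Starts, counted from 0 in the lists, are printed from 1.

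Chromosomes 1 to 22 and X were used, without further filters. Peaks were assigned to 1 Mb bins by midpoint, and overlap meant at least 1 bp. Shares have 95% Wilson, differences Newcombe, densities exact Poisson and medians order-statistic intervals, which cover counting error only. With 1 sample per group no test between samples was run. Regions were named by score or mean rank within lists: the 5 highest-scoring peaks per list, 15 all-stage regions, 3 per other class, and the widest, densest and emptiest stretches. The planned location of peaks relative to genes was not run, because an hg19 annotation was not used here. Alternatives were other overlap rules, stricter scores, lists of equal length, width limits and other bins or run gaps. Interval code was checked on simulated lists. Python 3.11.15, numpy 2.4.6, pandas 2.3.3, scipy 1.17.1 and matplotlib 3.10.9 were used.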

Additional observations from a re-analysis of the deposited data

How the results depend on the processing

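Of the 134 values recomputed under another setting, 41 stayed within a set limit and 93 moved beyond it. None turned the direction of a density ratio, but chromosome 22 was picked from earlier results on these lists. The limit was the interval of the main value, except for the number of peaks in the longest run, where it was a fixed factor. Values are given as early, mid, late and MeDIP, or in the order named. The settings that left out the stretch from 19 to 29 Mb, or chromosomes 7 and 8, were chosen after seeing the data. The density ratio of chromosome 22 over the others was 7.15, 7.05 and, for MeDIP, 3.81 by bases covered. It was 4.81, 4.86, 3.73 and 2.73 with lengths from base 1, and 7.93, 8.02 and 6.60 for ORCA without chromosomes 7 and 8. Without the stretch it was 2.80, 3.28 and 2.53 for ORCA. It was 3.46 for late peaks with scores at or above the list median and 3.30 for MeDIP with peaks within 1 kb counted once. Median widths were 896.5, 954, 1858 and 1167 bp at or above the median score, and 516.5, 557, 768 and 848 bp without the stretch.

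Shares with another list are given here in percent. They were recomputed for chromosome 22 only, so their differences from the other chromosomes were not tested under these settings. With an overlap of 50% of the shorter peak, early with mid was 30.1, mid with early 30.4, early with MeDIP 35.1, mid with MeDIP 48.4, MeDIP with early 7.57 and MeDIP with mid 10.2. Within 1 kb, early with mid was 42.7, early with late 10.6, mid with early 43.7, mid with late 10.4, early with MeDIP 53.1, mid with MeDIP 66.9, and MeDIP with early 13.5, with mid 16.6 and with late 2.22. At or above the median score, late with early and late with mid were 86.2, early with MeDIP 35.5, and MeDIP with early 7.68, with mid 10.3 and with late 0.893. At scores of 100 or more, early with mid was 43.1, early with late 11.2, mid with early 28.7, late with early 80.0, late with mid 86.7, early with MeDIP 56.9, mid with MeDIP 66.7, late with MeDIP 80.0, and MeDIP with early 2.79, with mid 4.58 and with late 0.583.

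With the early and mid lists at the length of the late list, early with late was 28.0, mid with late 28.2, late with early 26.2, late with mid 31.2, early with MeDIP 64.0, mid with MeDIP 77.6, MeDIP with early 1.502 and MeDIP with mid 1.89. Without the widest 5%, early with mid was 26.6, early with late 5.81, mid with early 27.2, mid with late 5.28, late with early 51.3, late with mid 46.1, early with MeDIP 28.4, mid with MeDIP 37.8, late with MeDIP 34.2, and MeDIP with early 6.74, with mid 8.82 and with late 0.962. Without the stretch, early with mid was 26.0, mid with early 23.8, late with mid 80.0, early with MeDIP 36.3, late with MeDIP 43.3, and MeDIP with early 3.93, with mid 6.24 and with late 0.648.

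With bins shifted by 500 kb the densest early and mid bin ran from 19.5 to 20.5 Mb, while the late and MeDIP ones overlapped those reported. With neighbours at most 10 kb apart, the run with the most peaks held 19 early, 4 late and 77 MeDIP peaks, and at 50 kb 142 early and 104 mid peaks. The causes were not tested. No paired analysis was possible because each group had 1 sample. Read depth is unstated, and the late shares rest on 80 peaks.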
